A study of Rattus norvegicus with 63 samples.

Results

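The miR-106b, miR-93, miR-25 cluster was followed across the livers of 63 rats. Its 3 members are rno-miR-106b, rno-miR-93 and rno-miR-25, and they were taken by name from the 350 rat miRNAs on the array, with passenger strands (names ending in *) left out. The cluster was chosen from measured values: rno-miR-93 was already known to be called higher than the control set with many of the carcinogens, so the calls and fold changes below describe the members and are no test of them. Tests are given only for 3 compounds (CPA, CFX and Nif), and for the way the members vary between rats of 1 group. By the labels used here, the rats and control sets of these compounds had no part in that choice.

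The animals were male Wistar Hanover rats, 8 to 10 weeks old at the start, dosed by gastric gavage. Methylcellulose (MC) served as vehicle in control sets 1, 2, 5 and 6, each taken after 14 days, and corn oil (CO) in set 3 (7 days) and set 4 (14 days). Set 1 was the control for acetamide (AA, 3000 mg/kg per day, 14 days), dehydroepiandrosterone (DHEA, 600 mg/kg, 14 days), methylcarbamate (Mcarb, 400 mg/kg, 14 days), methapyrilene HCl (MPy, 60 mg/kg, 7 days), Thioacetamid (TAA, 19.2 mg/kg, 7 days) and Wy-14643 (WY, 60 mg/kg, 3 days). Set 2 was the control for cefuroxime (CFX, 250 mg/kg, 14 days) and nifedipine (Nif, 3 mg/kg, 14 days). Set 5 served diethylstilbestrol (DES, 10 mg/kg, 3 days), ethionine (ETH, 200 mg/kg, 14 days) and piperonylbutoxide (PBO, 1200 mg/kg, 3 days), and set 6 served phenobarbital sodium (PB, 14 days, dose not in the labels). C.I Direct Black (CIDB, 146 mg/kg) and dimethylnitrosamine (DMN, 4 mg/kg), both given for 7 days, had set 3, and cyproterone acetate (CPA, 100 mg/kg, 14 days) had set 4. CIDB and DMN are labelled genotoxic carcinogens (GC), CFX and Nif non-carcinogens (NC), and CPA, TAA and WY undefined. The other 8 are nongenotoxic carcinogens (NGC). Each group holds 3 rats. Those of the treated groups were picked from 5 by their liver histopathology. By the labels MPy, TAA, WY, DES and PBO were thus compared with vehicle rats of a longer duration, while the study's methods call the control groups time-matched. If the labels hold, time and compound cannot be told apart there.

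A miRNA is a short RNA that lowers the output of messenger RNAs whose untranslated ends pair with its seed, bases 2 to 8. The 3 hairpins are made from 1 primary transcript inside an intron of Mcm7, which codes for a subunit of the helicase that opens DNA for replication, so the cluster is commonly transcribed with a gene of dividing cells. rno-miR-106b and rno-miR-93 belong to the miR-17 seed family, known for restraining the cell-cycle inhibitor p21, and miR-25 belongs to the miR-92 seed family, known for restraining the death-promoting protein Bim. The cluster is often high in liver tumours and in growing cells.

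In RefSeq's GRCr8 annotation Mcm7 spans chr12:22155921-22163320. Mir106b lies at chr12:22157053-22157134, Mir93 at chr12:22156844-22156930 and Mir25 at chr12:22156641-22156724. The 3 hairpins lie within 494 bases, all on the minus strand and within Mcm7. The mature sequences below, from RefSeq, are set beside 3 relatives of the same seeds that the array detected on most rats, since a probe for 1 of them may also bind its near copies. Capitals mark the seed.
rno-miR-106b: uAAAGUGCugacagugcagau
rno-miR-93: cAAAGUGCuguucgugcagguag
rno-miR-17: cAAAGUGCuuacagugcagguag
rno-miR-20a: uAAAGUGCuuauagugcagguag
rno-miR-25: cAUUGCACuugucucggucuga
rno-miR-92a: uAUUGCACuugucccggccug
Aligned from the first base without gaps, rno-miR-106b matched rno-miR-17 and rno-miR-20a each at 18 of 21 positions and rno-miR-93 at 16 of 21. rno-miR-93 matched rno-miR-17 and rno-miR-20a each at 19 of 23, and rno-miR-25 matched rno-miR-92a at 18 of 21. Between the seeds, rno-miR-106b and rno-miR-25 were alike at 5 of 21 positions. Because relatives are this alike, how far their signals mix on the array is uncertain.

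The window of RefSeq's promoter table for Mcm7, from 250 bases before to 50 after its start site, was searched on both strands for the letters TTTCGCGC, TTTGGCGC and TTTCCCGC, variants of the motif of the E2F factors that switch on replication genes. TTTCGCGC stood 52 bases before the start site of that table, which lies inside the span of Mcm7 given above, since the gene's span reaches further upstream. The motif is shown here within 30 bases of the minus strand (chr12:22163212-22163241) because the 3 members are read from this transcript.
Mcm7 promoter: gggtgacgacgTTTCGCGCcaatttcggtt
Capitals mark the motif. Of 27457 windows of this length, 94 (0.342%) held TTTCGCGC. TTTCCCGC stood in the opposite orientation 233 bases before the same start site, as in 283 windows (1.03%), and TTTGGCGC, held by 143 windows (0.521%), was not in the Mcm7 window. Nothing about binding was measured.

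Each rat had 1 array, on which each member is read by 2 probes and 20 spots. Arrays lay on 9 slides scanned on 3 days (30, 28 and 5 arrays), and the median spot brightness was highest on day 1 (193.5 to 243.5 units per array) and lowest on day 3 (75 to 78). The number of arrays limits precision. AA (2 of 3 rats), TAA, WY and DES were scanned on day 1 while their control sets were scanned on days 2 and 3. In the authors' value table, 15 of 63 columns follow the scanner array of another group over 71 miRNAs: the DES and DHEA columns are exchanged, and MC sets 1, 2 and 5 are rotated among each other. Which side carries the true label is not known, so values below use the scanner files' labels and those under the table's assignment stand beside them where they matter. Liver identity held: the hepatocyte markers miR-122, miR-192 and miR-194 had a summed log2 level of 14.33 to 14.82 on all arrays.

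All 3 members gave dim signals. Levels are log2 brightness without background correction, quantile normalized between arrays, and on this scale the median of the 188 miRNAs detected on no array was 7.39 to 7.41. Over the 63 rats rno-miR-106b ran from 7.79 to 8.12, rno-miR-93 from 7.49 to 7.67 and rno-miR-25 from 7.75 to 8.07. rno-miR-106b and rno-miR-25 were well above background on 63 of 63 arrays, and rno-miR-93 on 51. So near to background, this scale compresses differences. Changes are therefore also given on a second scale, the scanner software's background-subtracted signal divided by each array's 75th percentile over miRNAs detected on all arrays. There the whole range over the rats was 2.31-fold for rno-miR-106b, 1.51-fold for rno-miR-93 and 2.23-fold for rno-miR-25, against 1.26-, 1.13- and 1.25-fold without background correction. On the second scale probe signals below a floor of 28.94 units were raised to it. The lowest rno-miR-93 values (log2 4.85, rats 4 and 5 of MC set 1) lie at this floor, which limits its range and its changes against set 1. Sizes on this scale also depend on which miRNAs set the percentile.

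In vehicle liver, rno-miR-106b was lowest in MC set 1 (7.87, 7.79 and 7.84 in rats 4, 5 and 6). MC set 2 gave 7.85, 7.87 and 7.90, and MC set 5 gave 7.87, 7.84 and 7.85. MC set 6 gave 7.94, 8.03 and 7.91. All 3 rats of set 6, scanned on day 1, lay above the 9 other MC rats, whose highest value was 7.90. On this scale the level in vehicle liver thus differed by scan day or set, which cannot be told apart here. The CO rats, also scanned on day 1, were at 7.93, 7.93 and 7.95 in set 3 and 7.93, 7.95 and 7.99 in set 4. On the background-subtracted scale set 6 (5.87 to 6.27) and the CO rats (5.75 to 5.99) overlapped the 9 other MC rats (5.44 to 6.03).

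For rno-miR-93 the vehicle rats were at 7.56, 7.49 and 7.54 in MC set 1, 7.55, 7.55 and 7.58 in set 2, 7.58, 7.54 and 7.57 in set 5 and 7.58, 7.63 and 7.56 in set 6. The CO rats were at 7.58, 7.57 and 7.60 in set 3 and 7.58, 7.60 and 7.59 in set 4. Rat 5 of MC set 1 had the lowest value of all 63 rats. In CO set 4 rno-miR-93 was not well above background on any array and in CO set 3 on 1 of 3. rno-miR-25 was at 7.81, 7.75 and 7.85 in MC set 1, 7.82, 7.82 and 7.89 in set 2, 7.86, 7.80 and 7.80 in set 5 and 7.84, 7.92 and 7.82 in set 6. CO rats had 7.87, 7.88 and 7.88 in set 3 and 7.86, 7.94 and 7.91 in set 4, so sets of the same vehicle overlapped.

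**Figure D1:**
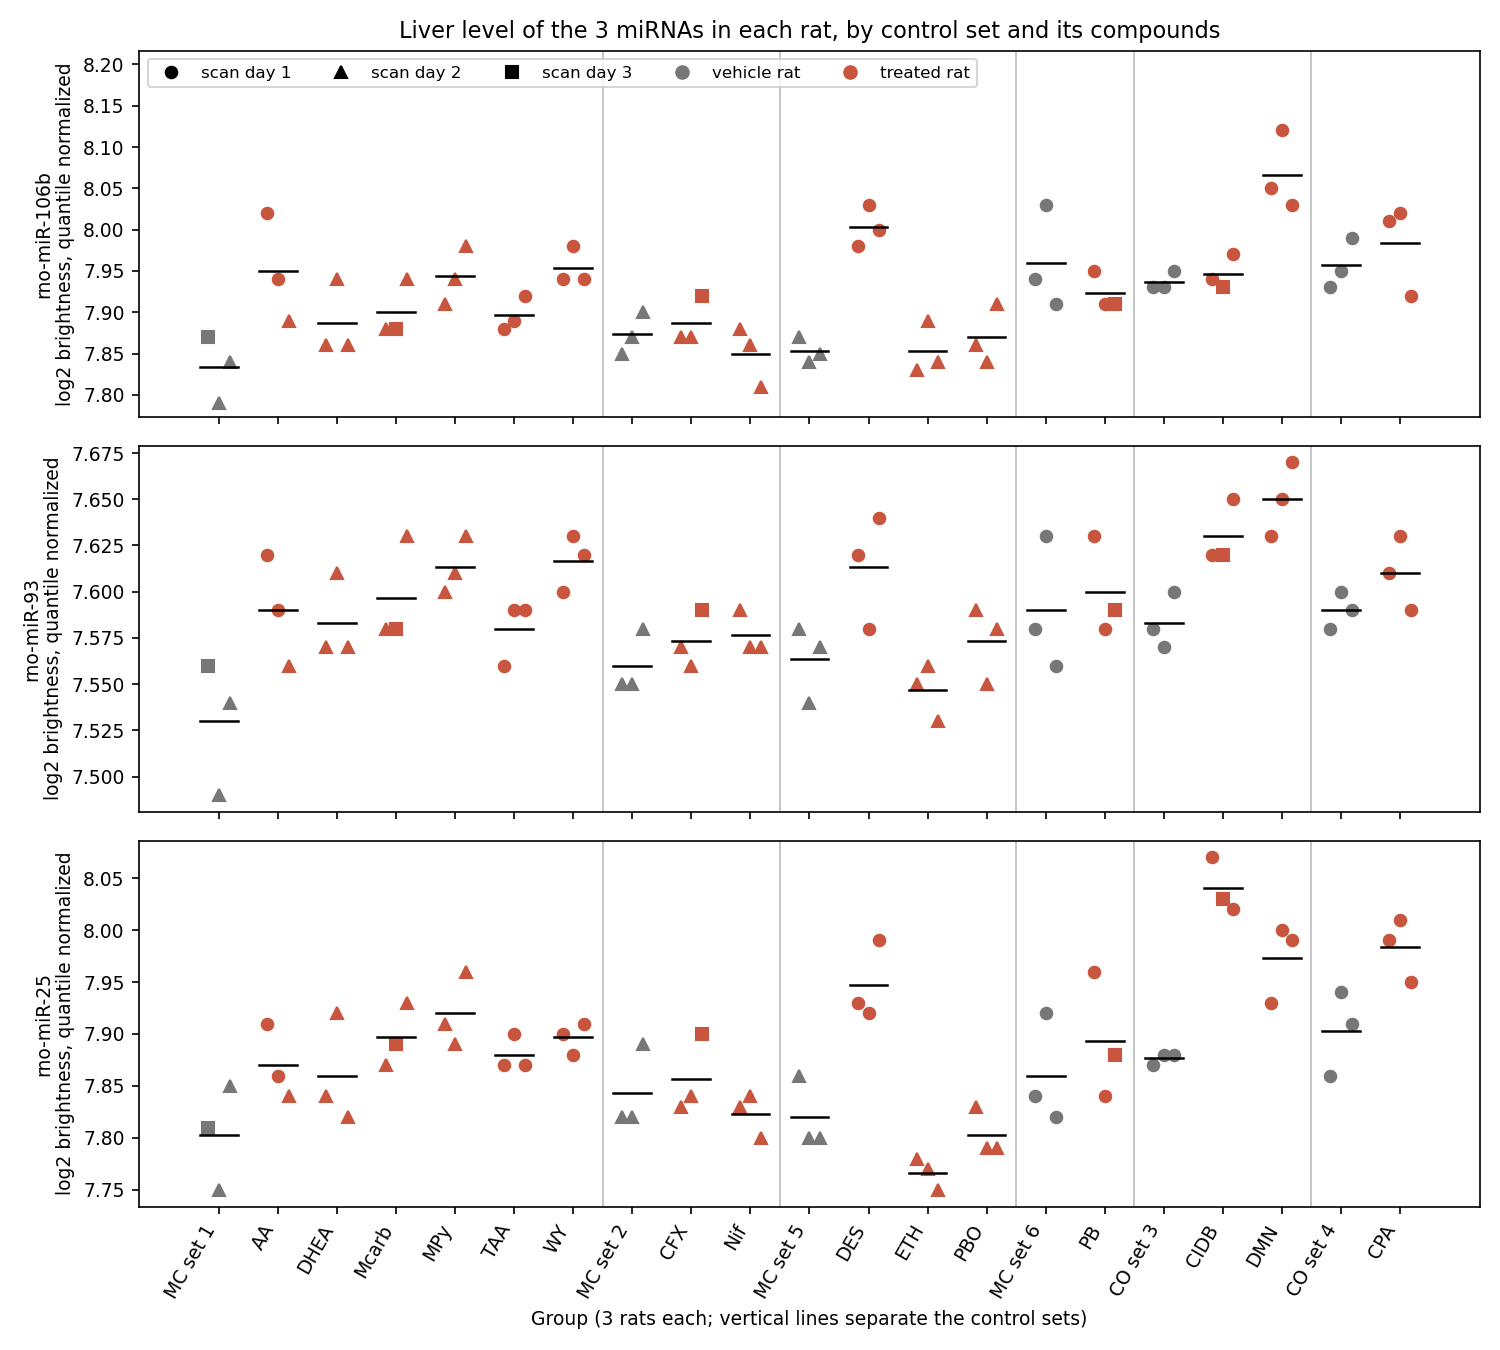
Log2 brightness of rno-miR-106b, rno-miR-93 and rno-miR-25 (y axes) in each of the 63 rats, by group (x axis), with marker shape for the scan day, colour for vehicle or treated rats and a line at each group mean of 3. DMN, CIDB, MPy and WY rats lie above their control sets for rno-miR-93, while CFX and Nif rats overlap MC set 2.

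Ranked by group mean, the 21 groups formed a gradient. The lowest means were in MC set 1 for rno-miR-106b (7.83 ± 0.04, SD, n = 3) and rno-miR-93 (7.53 ± 0.03), and in ETH for rno-miR-25 (7.77 ± 0.02). The highest were in DMN for rno-miR-106b (8.07 ± 0.04) and rno-miR-93 (7.65 ± 0.02) and in CIDB for rno-miR-25 (8.04 ± 0.03). Neighbours in this order overlapped in 19 of 20 cases for rno-miR-106b, 20 of 20 for rno-miR-93 and 19 of 20 for rno-miR-25, so the order between neighbours is not resolved. The exceptions are the top steps, DES to DMN for rno-miR-106b and CPA to CIDB for rno-miR-25.

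With a call set at an adjusted p under 0.05 in limma over 162 miRNAs, rno-miR-106b was called higher with 5 of 15 compounds (AA, DES, DMN, MPy and WY). rno-miR-93 was called higher with 9 (AA, CIDB, DES, DHEA, DMN, MPy, Mcarb, TAA and WY), and rno-miR-25 with 5 (CIDB, DES, DMN, MPy and WY). No member was called lower with any compound. Over all miRNAs and compounds 184 calls were higher and 163 lower, a split that was 286 to 95 on the background-subtracted scale and 78 to 153 when that signal was scaled over all probes. Over all 2430 pairs of compound and miRNA, 7.57% were called higher, and 6.13% with arrays assigned as in the value table, under which each member was called higher with 4 compounds. DES, DMN, MPy and WY had calls of all 3 members, AA and CIDB of 2, and DHEA, Mcarb and TAA of rno-miR-93 alone. CFX, CPA, ETH, Nif, PB and PBO had none. By class, rno-miR-93 was called higher with 5 of 8 NGC, 2 of 2 GC, 0 of 2 NC and 2 of 3 undefined compounds. The share of all miRNAs with every treated rat above every control rat is not given here, so such separations below are descriptions. AA, DHEA, Mcarb, MPy, TAA and WY share MC set 1, so their 6 comparisons are not independent: without rat 5 of that set, rno-miR-93 was called with 5 compounds, MPy and WY being the only ones left of these 6.

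**Figure D2:**
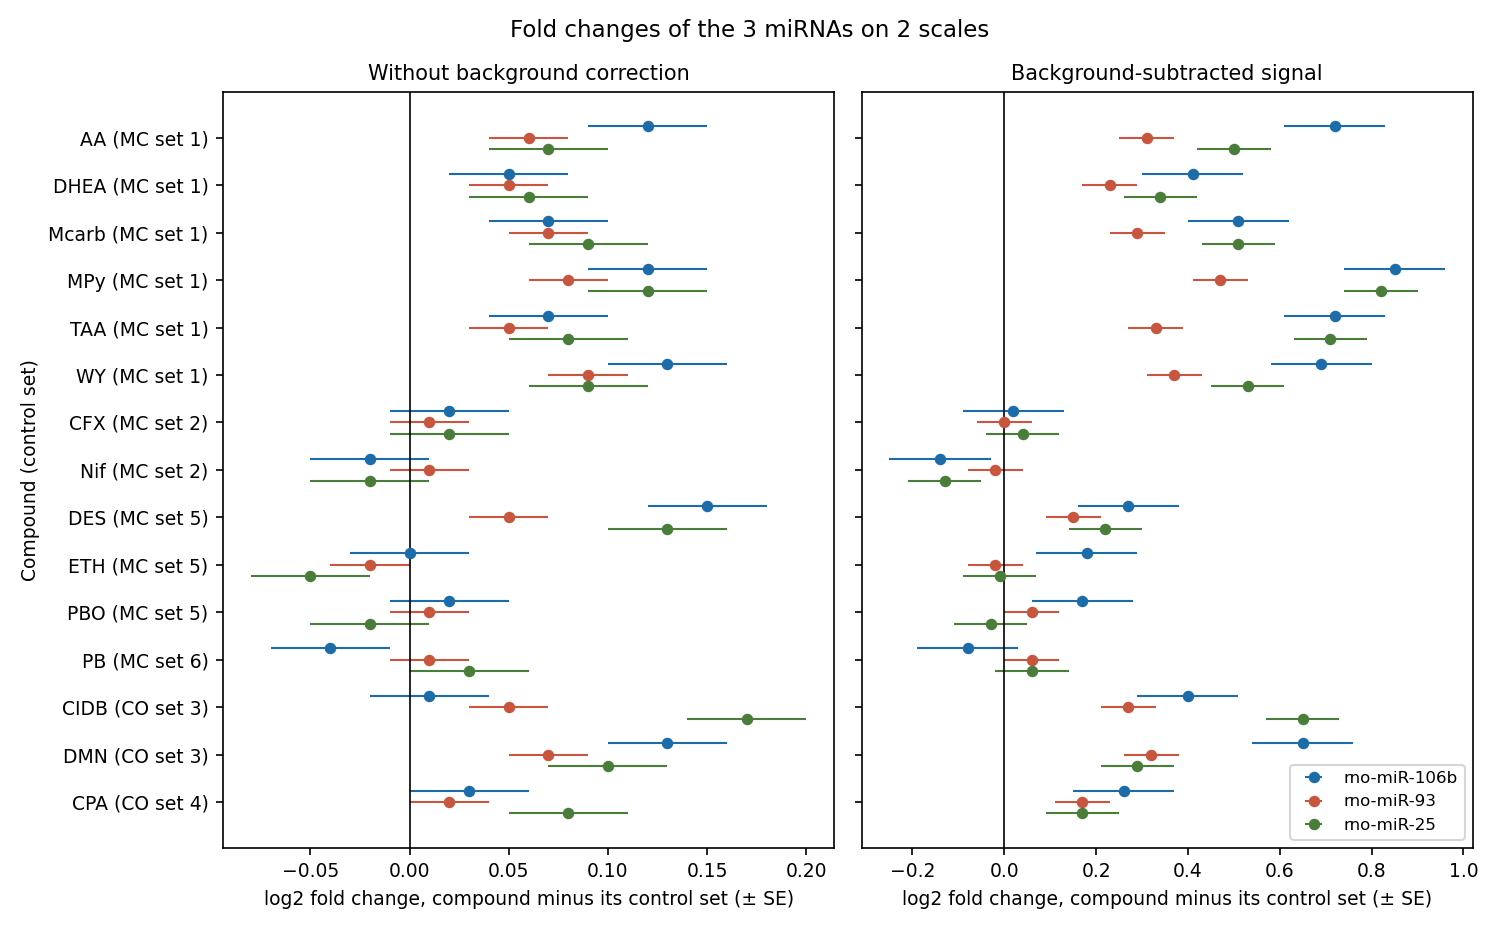
Log2 fold change of each member against the control set (x axes, with SE) for the 15 compounds (y axis), without background correction on the left and on the background-subtracted signal on the right, where the x range is wider. MPy has the largest value of all 3 members on the right (0.85, 0.47 and 0.82), and CFX, Nif, PB and PBO stay near 0 on the left. The signal on the right is scaled over miRNAs detected on all arrays.

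DMN, an alkylating carcinogen, gave calls of all 3 members, among 22 of 162 miRNAs called higher (13.6%). rno-miR-106b was at 8.05, 8.12 and 8.03, a log2 fold change of 0.13 ± 0.03 (SE) against CO set 3, and 0.65 ± 0.11 on the background-subtracted scale (1.57-fold). rno-miR-93 was at 7.63, 7.65 and 7.67 (0.07 ± 0.02, and 0.32 ± 0.06 background-subtracted), and rno-miR-25 at 7.93, 8.00 and 7.99 (0.10 ± 0.03, and 0.29 ± 0.08). All DMN rats lay above all control rats for each member. Both groups were scanned on day 1, but the DMN arrays lay on slide 2 and those of CO set 3 on slide 3. Between these groups compound and slide cannot be told apart. With slide as a fixed block the values were 0.16, 0.10 and 0.04, and none was called. The 16 settings of processing called rno-miR-106b in 14, rno-miR-93 in 13 and rno-miR-25 in 12. Markers of other cells moved with these values: 4 of 5 tested leukocyte miRNAs were called higher, with summed log2 levels of 10.55 to 10.89 against 10.22 to 10.33, and 3 of 4 tested stellate, smooth muscle and endothelial miRNAs were called lower (10.59 to 10.61 against 10.76 to 10.85). Of the hepatocyte markers 1 of 3 was called lower (14.62 to 14.75 against 14.71 to 14.81). The part of these markers in the result was not tested. In whole liver a shift in cell types and a change within cells cannot be told apart.

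CIDB, an azo dye, differed between the members. rno-miR-25 was at 8.07, 8.03 and 8.02, the highest group of the series, at 0.17 ± 0.03 above CO set 3 (0.65 ± 0.08 background-subtracted, 1.57-fold). Its 2 probes gave 0.18 and 0.16, and it was called under 16 of 16 settings. rno-miR-93, at 7.62, 7.62 and 7.65, was 0.05 ± 0.02 higher (0.27 ± 0.06). rno-miR-106b was at 7.94, 7.93 and 7.97, overlapping its controls, at 0.01 ± 0.03, though on the background-subtracted scale all 3 rats lay above them (0.40 ± 0.11). In CIDB liver 21 of 162 miRNAs were called higher (13.0%). Hepatocyte markers were lower here, with 2 of 3 called and a summed log2 level of 14.33 to 14.60 against 14.71 to 14.81. Of the leukocyte markers 1 of 5 was called lower (10.16 to 10.20 against 10.22 to 10.33). The part of these markers was not tested.

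MPy, a hepatotoxic antihistamine, had the largest changes on the background-subtracted scale. Without background correction rno-miR-106b was at 7.91, 7.94 and 7.98 (0.12 ± 0.03 above MC set 1), rno-miR-93 at 7.60, 7.61 and 7.63 (0.08 ± 0.02) and rno-miR-25 at 7.91, 7.89 and 7.96 (0.12 ± 0.03). All treated rats lay above all set 1 rats. Background-subtracted, the 3 members were 1.80-, 1.39- and 1.76-fold higher. With that signal scaled over all probes instead, the log2 fold change of rno-miR-106b was 0.33 ± 0.16, against 0.85 ± 0.11, and only rno-miR-25 was called. Calls of all 3 members held with scan day as a block, where the values were 0.13, 0.09 and 0.13, and under the table's assignment for rno-miR-106b (0.09) and rno-miR-25 (0.10) but not rno-miR-93 (0.05). All 3 calls were lost with slide as a fixed block (0.05, 0.02 and 0.11) and with only the groups compared (0.12, 0.08 and 0.12). In all, 13 of 162 miRNAs were called higher with MPy (8.02%).

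WY, an activator of the peroxisome receptor PPAR-alpha, had rno-miR-106b at 7.94, 7.98 and 7.94, rno-miR-93 at 7.60, 7.63 and 7.62 and rno-miR-25 at 7.90, 7.88 and 7.91. All lay above MC set 1, by 0.13 ± 0.03, 0.09 ± 0.02 and 0.09 ± 0.03, and by 0.69 ± 0.11, 0.37 ± 0.06 and 0.53 ± 0.08 background-subtracted. WY rats were scanned on day 1 and set 1 on days 2 and 3, and with scan day as a block the values were 0.07, 0.06 and 0.06 and none was called. Under the table's assignment they were 0.10, 0.06 and 0.07, and rno-miR-25 was not called. Of the miRNAs tested, 19 were called higher with WY (11.7%).

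AA and TAA have the same mismatch of scan days. AA rats had rno-miR-106b at 8.02, 7.94 and 7.89 (0.12 ± 0.03), rno-miR-93 at 7.62, 7.59 and 7.56 (0.06 ± 0.02) and rno-miR-25 at 7.91, 7.86 and 7.84, which overlapped MC set 1 (0.07 ± 0.03, not called). For each member the lowest AA rat was the 1 scanned on day 2. TAA rats had rno-miR-106b at 7.88, 7.89 and 7.92 (0.07 ± 0.03), rno-miR-93 at 7.56, 7.59 and 7.59 (0.05 ± 0.02) and rno-miR-25 at 7.87, 7.90 and 7.87 (0.08 ± 0.03), and only rno-miR-93 was called. Background-subtracted, the changes were far larger, 0.72, 0.31 and 0.50 in AA and 0.72, 0.33 and 0.71 in TAA. With that signal scaled over all probes instead, rno-miR-106b was at 0.33 in AA and 0.15 in TAA, and no member was called. With scan day as a block the changes were 0.09, 0.04 and 0.05 in AA and 0.01, 0.02 and 0.04 in TAA without background correction, and none was called. Under the table's assignment they were 0.10, 0.03 and 0.05 in AA and 0.04, 0.02 and 0.06 in TAA, again with no call. Background shares were 8.02% of miRNAs called higher for AA (13 of 162) and 9.88% for TAA (16 of 162).

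Mcarb rats were split over scan days 2 and 3 as MC set 1 was, and DHEA rats were all scanned on day 2, as 2 of the 3 set 1 rats were. Mcarb rats had rno-miR-106b at 7.88, 7.88 and 7.94 (0.07 ± 0.03), rno-miR-93 at 7.58, 7.58 and 7.63 (0.07 ± 0.02) and rno-miR-25 at 7.87, 7.89 and 7.93 (0.09 ± 0.03). All lay above set 1, and rno-miR-93 was 1 of 2 miRNAs called higher with Mcarb (1.23%). Under the table's assignment rno-miR-93 was at 0.04 and was not called. DHEA rats had rno-miR-106b at 7.86, 7.94 and 7.86 (0.05 ± 0.03), rno-miR-93 at 7.57, 7.61 and 7.57 (0.05 ± 0.02) and rno-miR-25 at 7.84, 7.92 and 7.82 (0.06 ± 0.03). Without background correction only rno-miR-93 cleared set 1 in every DHEA rat and was called, among 16 of 162 miRNAs (9.88%). On the background-subtracted scale all 3 members lay above set 1 in every Mcarb rat (0.51 ± 0.11, 0.29 ± 0.06 and 0.51 ± 0.08) and every DHEA rat (0.41 ± 0.11, 0.23 ± 0.06 and 0.34 ± 0.08). All were called there, on a scale with 286 calls higher and 95 lower over all miRNAs and compounds. With that signal scaled over all probes instead, rno-miR-106b was at 0.14 in Mcarb and 0.28 in DHEA, and no member was called.

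DES, a synthetic oestrogen, gave the largest rno-miR-106b value without background correction, at 7.98, 8.03 and 8.00 (0.15 ± 0.03 above MC set 5). rno-miR-93 was at 7.62, 7.58 and 7.64 (0.05 ± 0.02) and rno-miR-25 at 7.93, 7.92 and 7.99 (0.13 ± 0.03), all above set 5. These 3 calls depended on the labels used and on whether scan day was in the model. DES was scanned on day 1 and set 5 on day 2, so compound and scan day cannot be told apart between these groups. With scan day as a block the values were 0.08, 0.02 and 0.08, and none was called. With arrays assigned as in the value table they were 0.01, 0.02 and 0.02 in DES, while DHEA then had 0.15, 0.05 and 0.13 with all 3 members called. The 2 probes of rno-miR-25 also went apart in DES, at -0.03 and 0.28. On the background-subtracted scale DES had 0.27, 0.15 and 0.22, no member was called but rno-miR-25, and the rats overlapped set 5 for rno-miR-93 and rno-miR-25. Of the leukocyte markers 2 of 5 were called lower with DES, with summed levels of 10.13 to 10.23 against 10.33 to 10.36, and 1 of 3 hepatocyte markers was called higher (14.74 to 14.80 against 14.78 to 14.81). Their part was not tested. In DES liver 34 of 162 miRNAs were called higher (21%), the most of any compound.

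ETH, PBO and PB are carcinogens with no call of a member. ETH rats had rno-miR-106b at 7.83, 7.89 and 7.84 and rno-miR-93 at 7.55, 7.56 and 7.53, overlapping MC set 5 (0.00 ± 0.03 and -0.02 ± 0.02). Their rno-miR-25 values of 7.78, 7.77 and 7.75 lay below all set 5 rats (-0.05 ± 0.03), the only such case, and they overlapped set 5 on the background-subtracted scale (-0.01 ± 0.08). With all MC rats as controls, the 1 setting of 16 to do so, it was called lower. PBO rats were at 7.86, 7.84 and 7.91 for rno-miR-106b (0.02 ± 0.03), 7.59, 7.55 and 7.58 for rno-miR-93 (0.01 ± 0.02) and 7.83, 7.79 and 7.79 for rno-miR-25 (-0.02 ± 0.03). PB rats were at 7.95, 7.91 and 7.91 (-0.04 ± 0.03), 7.63, 7.58 and 7.59 (0.01 ± 0.02) and 7.96, 7.84 and 7.88 (0.03 ± 0.03), in the same order, against MC set 6. All PBO and PB values overlapped their controls. Other miRNAs were called higher with these compounds, 10 of 162 with ETH (6.17%), 8 with PBO (4.94%) and 4 with PB (2.47%).

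CPA, CFX and Nif allow a test of the members. CPA, a steroidal antiandrogen, gave rno-miR-25 at 7.99, 8.01 and 7.95, all above CO set 4, by 0.08 ± 0.03 (95% interval 0.02 to 0.14), which did not pass the adjustment (limma adjusted p = 0.109, unadjusted 0.00882). With all CO rats as controls its adjusted p was 0.0101, and over 21 alternatives it ran from 0.0101 to 1. rno-miR-106b was at 8.01, 8.02 and 7.92 (0.03, interval -0.03 to 0.09, limma adjusted p = 0.685). rno-miR-93 was at 7.61, 7.63 and 7.59 (0.02, interval -0.01 to 0.06, limma adjusted p = 0.565). rno-miR-93 was not well above background on any array of CO set 4 and was so on 2 of 3 CPA arrays. Its measured control mean was 7.59, and with each control raised to the lowest signal well above background it was 7.61, as in CPA. The size of the rno-miR-93 change is therefore not resolved. On the background-subtracted scale the 3 members were at 0.26 ± 0.11, 0.17 ± 0.06 and 0.17 ± 0.08 with all CPA rats above all CO set 4 rats, and none was called. The rno-miR-93 value there rests on the same controls, none of them well above background. With CPA 6 of 162 miRNAs were called higher (3.7%).

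With CFX, an antibiotic, all 3 members overlapped MC set 2. rno-miR-106b was at 7.87, 7.87 and 7.92 (0.02, 95% interval -0.05 to 0.08), rno-miR-93 at 7.57, 7.56 and 7.59 (0.01, interval -0.02 to 0.05) and rno-miR-25 at 7.83, 7.84 and 7.90 (0.02, interval -0.04 to 0.07). Each had a limma adjusted p of 0.987. Nif, a calcium channel blocker, gave 7.88, 7.86 and 7.81 for rno-miR-106b (-0.02, interval -0.08 to 0.04), 7.59, 7.57 and 7.57 for rno-miR-93 (0.01, interval -0.02 to 0.05) and 7.83, 7.84 and 7.80 for rno-miR-25 (-0.02, interval -0.08 to 0.04). Each had a limma adjusted p of 0.9. No miRNA was called higher with CFX or Nif (0.0% each). For rno-miR-93 both intervals reach 0.05, the size called with CIDB, DES, DHEA and TAA, and so do not exclude a change of that size. In the authors' value table the members were further from 0, at 0.31, 0.27 and 0.25 in CFX and, for rno-miR-93 in Nif, at 0.29. None of these was called there. That table's columns for MC set 2 follow the scanner arrays of MC set 1, so the control arrays differ from those tested above. With the scanner arrays so assigned, the members were at 0.06, 0.04 and 0.05 in CFX, and rno-miR-93 was at 0.04 in Nif. The arrays of MC set 1 also served carcinogens counted in the choice of the cluster. That the controls of CFX and Nif had no part in that choice therefore holds only under the scanner files' labels. On the background-subtracted scale the 3 members were at 0.02, -0.0046 and 0.04 in CFX and at -0.14, -0.02 and -0.13 in Nif, also without a call.

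Within a member the 2 probes did not always move together. Across the 15 compounds the fold changes of the 2 probes had the same sign in 13 for rno-miR-106b, 15 for rno-miR-93 and 11 for rno-miR-25, with r of 0.865, 0.636 and 0.267. For rno-miR-93 the median fold change over compounds was 0.02 at the first probe and 0.07 at the second. Its first probe ran from 7.39 to 7.5, near the 7.39 to 7.41 of miRNAs detected on no array, and its second had a median of 7.72. The change of rno-miR-93 was thus read mostly by 1 of its probes. So near to background the other can show little, and whether the probes disagree is not resolved.

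Leaving the compounds aside, the members moved together from rat to rat. Each rat's deviation from the mean of its group of 3 was taken, so that no compound contrast enters. Over 63 rats r was 0.72 between rno-miR-106b and rno-miR-93 (rho 0.68), 0.60 between rno-miR-106b and rno-miR-25 (rho 0.60) and 0.74 between rno-miR-93 and rno-miR-25 (rho 0.72). By a two-sided permutation test within groups, each adjusted p over the 3 pairs was 0.0001 or below for r and rho, 1e-05 being the smallest p the permutations can give. Without the 2 rats farthest from the median r was 0.67, 0.56 and 0.72, within scan day 1 0.58, 0.51 and 0.72 (30 rats) and within scan day 2 0.77, 0.67 and 0.84 (27 rats). All of these passed an adjusted p of 0.05, the highest being 0.0295. On the background-subtracted scale r was 0.74, 0.67 and 0.66. By comparison, the median r over the 2485 pairs of the 71 miRNAs detected on all arrays was 0.02 (25th and 75th percentiles -0.16 and 0.20), and over 741 pairs of 39 miRNAs of like brightness 0.00. Members share each rat's RNA, array and spot brightness, and whether the array or the liver carries the shared part was not tested.

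**Figure D3:**
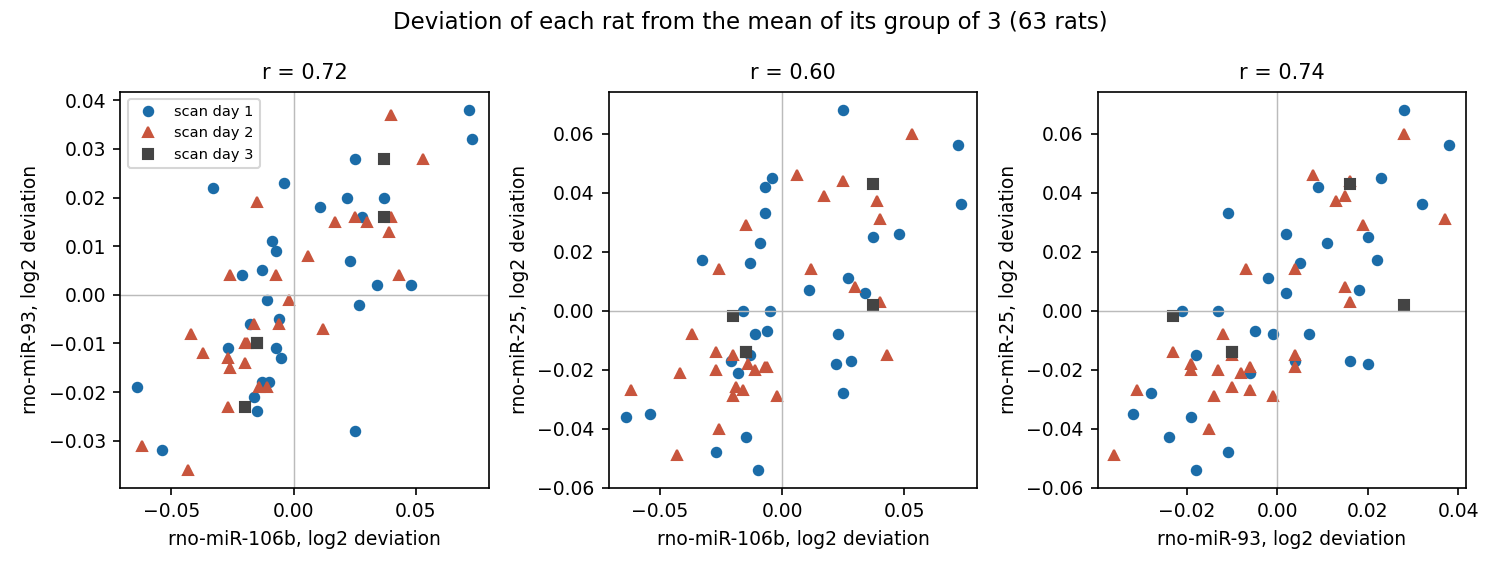
Deviation of each of 63 rats from its group mean for each pair of members (log2 units on both axes), with colour and shape for the scan day. The points follow a rising line in each panel, with r of 0.72, 0.60 and 0.74.

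Over the 21 group means the members also ran together, with r of 0.88 between rno-miR-106b and rno-miR-93, 0.78 between rno-miR-106b and rno-miR-25 and 0.88 between rno-miR-93 and rno-miR-25. Among 69 other miRNAs detected on all arrays, those most like the mean of the members over the 21 groups were rno-let-7i (r = 0.86), rno-miR-16 (0.67), rno-miR-15b (0.66), rno-miR-148b-3p (0.59) and rno-miR-98 (0.57). The least like were rno-miR-22 (-0.82) and rno-miR-125b-5p (-0.75). Over the same groups the 2 probes of a member had r of 0.77 for rno-miR-106b, 0.413 for rno-miR-93 and 0.0583 for rno-miR-25. The group means of rno-miR-25 thus combine 2 probes that did not run together over the groups. Groups share scan days and control sets, so these values describe the groups only.

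The relatives of the same seeds were called with fewer compounds than the members (0 to 2 each), while 7.57% of all pairs of compound and miRNA were called higher. Since the cluster was chosen with many calls of rno-miR-93 known, that difference was partly fixed in advance and was not tested. From a list of relatives by seed, by paralogous cluster (miR-17 to miR-92) or by hairpin, 12 are on the array and 7 were detected on at least 1 array and tested. rno-miR-17, which differs from rno-miR-93 at few bases, was called higher with DHEA only (0.07). rno-miR-20a was called higher with DES (0.32) and DHEA (0.28) and rno-miR-92a with none, its values running from -0.20 in PBO to 0.16 in DHEA. rno-miR-18a was called higher with 6 compounds but by at most 0.06, and was well above background on 1 array of 63. rno-miR-19a was called higher with DES, ETH and TAA (up to 0.34) and rno-miR-19b with ETH (0.45), and lower with CPA and PBO (-0.36). With DMN, where all members were called, the list's median was -0.04 against 0.00 for all miRNAs and rno-miR-18a alone was called. With MPy the list's median was 0.04 and again rno-miR-18a alone was called. Over the 21 group means r with the members was 0.02 for rno-miR-17, 0.51 for rno-miR-20a and 0.04 for rno-miR-92a. rno-miR-32 was detected on 7 arrays and not called. rno-miR-20b-5p, rno-miR-92b, rno-miR-363 and the passenger strands rno-miR-106b* and rno-miR-25* were detected on none.

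**Figure D4:**
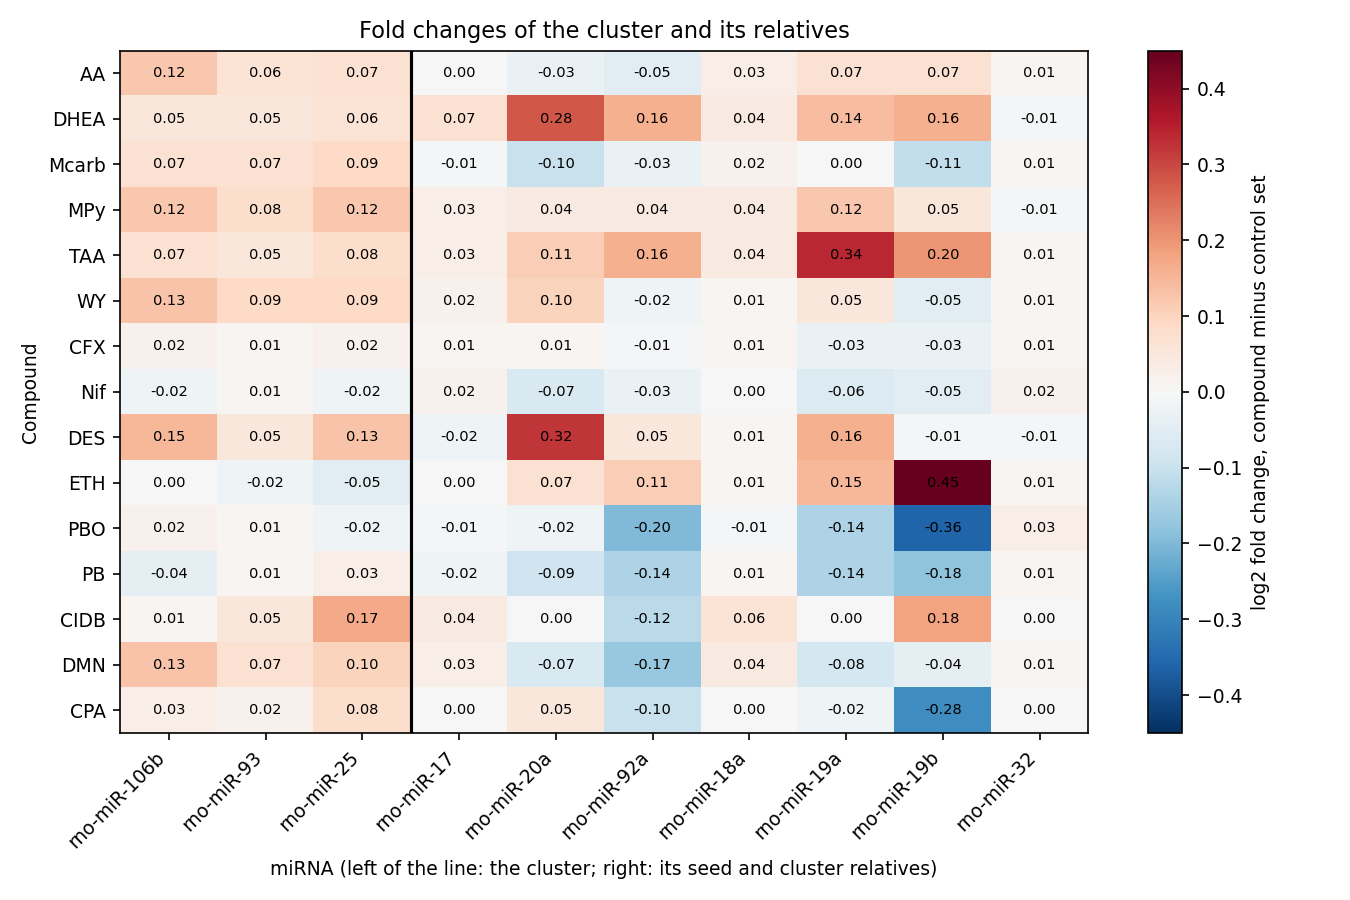
Log2 fold change (colour and printed value, without background correction) of the 3 members, left of the line, and of 7 relatives, right of it, for the 15 compounds (rows). The members are 0.05 to 0.13 in the 6 compounds of MC set 1, where rno-miR-17 runs from -0.01 to 0.07. Other relatives run wider there: rno-miR-20a from -0.10 to 0.28, rno-miR-92a from -0.05 to 0.16, rno-miR-19a from 0.00 to 0.34 and rno-miR-19b from -0.11 to 0.20.

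Over the 21 group means the members' mean had r of -0.49 with the summed hepatocyte markers (3 on the array), -0.08 with leukocyte markers (5 of 6 on the array), -0.37 with erythroid markers (both) and 0.17 with stellate, smooth muscle and endothelial markers (5, of which miR-145 was detected nowhere). Single markers within a list went different ways. Among hepatocyte markers r was -0.55 for miR-122, -0.40 for miR-194 and 0.15 for miR-192. The summed hepatocyte level lies close to miR-122 alone (14.21 to 14.70). Among leukocyte markers r was 0.35 for miR-146a, 0.22 for miR-223 and -0.35 for miR-142-3p. In the last list it was 0.53 for miR-126, 0.17 for miR-199a-3p and -0.41 for miR-143. With the 6 compounds of MC set 1 no leukocyte or erythroid marker was called. A hepatocyte marker was called lower with MPy and with DHEA (1 of 3 each, summed levels of 14.77 to 14.78 against 14.79 to 14.81 in both). A stellate, smooth muscle and endothelial marker was called higher with AA (1 of 4, 10.75 to 10.77, all above set 1) and lower with TAA (10.57 to 10.67) and WY (10.49 to 10.63), 1 of 4 each. Their part in the members' values was not tested. With ETH, where no member was called, 3 of 5 leukocyte markers were called higher (10.51 to 10.55 against 10.33 to 10.36). There 2 of 3 hepatocyte markers were called lower (14.75 against 14.78 to 14.81). A stellate, smooth muscle and endothelial marker was called higher with ETH (1 of 4, 10.66 to 10.80 against 10.66 to 10.74).

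**Figure D5:**
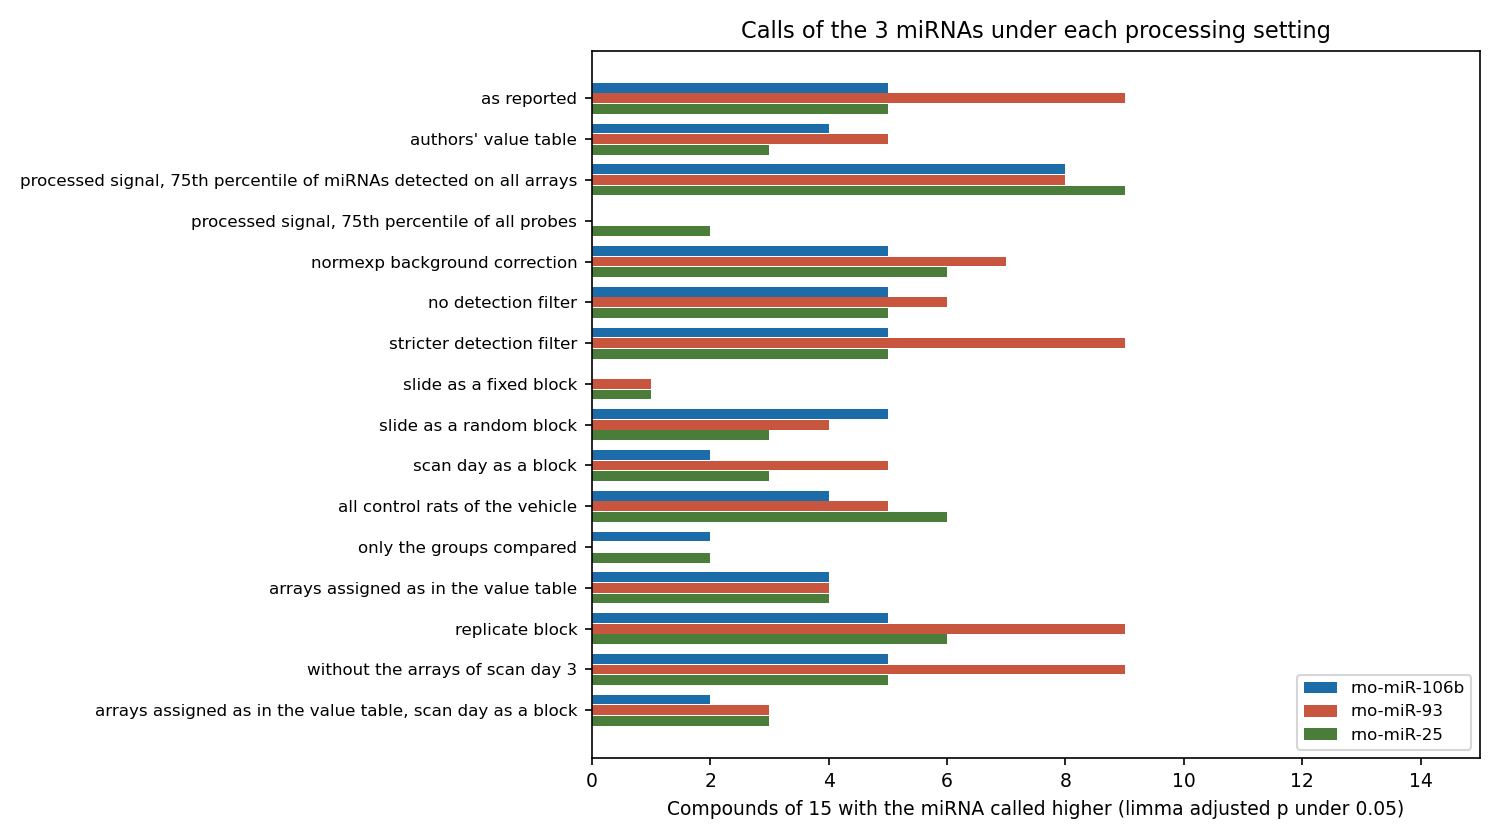
Number of the 15 compounds with each member called higher (x axis) under each way of processing (y axis), the values given above being at the top. Counts for rno-miR-93 run from 0 to 9 and for rno-miR-25 from 1 to 9.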

How the data were processed

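Liver miRNA was measured on 63 single-colour Agilent rat arrays, 1 per rat. Per the file headers, Agilent Feature Extraction 10.7.3.1 gave each spot's mean intensity, local background and background-subtracted processed signal, and no spot was saturated. The deposited value table holds normalized log2 values of 135 miRNAs, which the authors state were made by RMA without background correction. Its level and spread differ from the same processing done here, for a reason not tested. Here the mean intensity was used without background correction: control and outlier spots were dropped, arrays were quantile normalized, spots averaged per probe, and probes combined by median polish on log2. The 162 miRNAs detected on at least 1 array were fitted with limma 3.58.1 (R 4.3.3) over 21 groups, with Benjamini-Hochberg adjustment over all of them. Separate rats are the replicates. On simulated PB data, with changes of 1 log2 unit and no scan day or slide effect, 40 of 40 changed miRNAs among 162 were recovered, with 3 false calls. These changes are far larger than those of the members, so recovery of changes as small as theirs was not tested.

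Covariation used 100000 permutations of rats within groups (Python 3.11.15, numpy 2.4.6). Alternatives were the value table, the processed signal scaled by its 75th percentile, normexp with an offset of 50, other detection filters, slide or scan day as a block, other control rats, only the groups compared, the value table's array assignment and leaving out each rat. Further alternatives, without scan day 3 and the table's assignment with scan day as a block, were added after seeing the data. The members, lists and tests were chosen with earlier results of these data known. The text names the members, the fixed list of relatives, marker lists, and the 5 miRNAs most and 2 least like the members over group means. Sequences came from RefSeq (GRCr8) and were matched by name; 3 of 3 members matched.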

Additional observations from a re-analysis of the deposited data

How the results depend on the processing

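The counts of compounds with a member called higher depended on the processing, and the cause was not tested. For rno-miR-106b (5 compounds) the count was 8 on the processed signal scaled over miRNAs detected on all arrays, 0 when scaled over all probes and with slide as a fixed block, and 2 in the model with scan day, in that with only the groups compared, and with scan day plus the value table's array assignment. For rno-miR-93 (9) it was 0 when scaled over all probes or with only the groups compared, 1 with slide as a fixed block, 3 with scan day plus the table's assignment, 4 with the table's assignment or with slide as a random block, and 5 with the value table, with scan day in the model or with all control rats of the vehicle. For rno-miR-25 (5) it was 9 on the processed signal scaled over detected miRNAs, 2 over all probes or with only the groups compared, 1 with slide as a fixed block, and 3 with the value table, with slide as a random block, with scan day in the model, or with scan day plus the table's assignment. Leaving out 1 rat at a time gave 4 to 5, 5 to 9 and 4 to 7 compounds for rno-miR-106b, rno-miR-93 and rno-miR-25, the lowest for rno-miR-93 being without rat 5 of MC set 1. Normexp, both detection filters and leaving out scan day 3 kept each count within 1.5 times.

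With slide as a fixed block the log2 fold change of rno-miR-106b became -0.0068 in AA and -0.03 in WY, and that of rno-miR-93 -0.03 in AA, -0.06 in TAA and -0.02 in WY. rno-miR-93 in TAA was also at -0.02 with scan day plus the table's assignment. rno-miR-106b in TAA, 0.07 and not called, was at -0.09 with slide as a fixed block and at -0.03 with scan day plus the table's assignment. Of the tested values, rno-miR-25 in CPA (0.08) was called with all CO rats as controls (0.09). Values near 0 changed sign without ever passing the test. In CFX, rno-miR-106b was at -0.003 and rno-miR-25 at -0.0061 both with slide as a fixed block and without scan day 3, and rno-miR-93 was at -0.0046 on the processed signal scaled over detected miRNAs. In Nif, rno-miR-106b was at 0.18 and rno-miR-25 at 0.12 in the value table, at 0.20 and 0.24 on the processed signal scaled over all probes, at 0.02 and 0.02 with the table's assignment and at 0.03 and 0.03 when scan day was added, and rno-miR-93 was at -0.02 on the processed signal scaled over detected miRNAs. Without 1 rat each, rno-miR-106b ran from -0.003 to 0.03 in CFX and from -0.04 to 0.00026 in Nif, and rno-miR-25 from -0.0061 to 0.04 in CFX and from -0.03 to 0.0025 in Nif.

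PB and CPA share replicate numbers with their control sets, and a model with the replicate block gave 5, 9 and 6 compounds for rno-miR-106b, rno-miR-93 and rno-miR-25. Deviations of same-numbered rats correlated at -0.304 to 0.043, so the numbers do not pair the rats. The covariation of the members kept its direction and an adjusted p under 0.05 in 7 alternatives, r being lowest in the value table for rno-miR-106b and rno-miR-25 (0.45). The table's assignment exchanges whole groups, so it cannot change these deviations.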
